A study of Mus musculus with 12 samples.

Results

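Mutations in a small set of genes run in families with Parkinson's disease (PD). Followed here in cultured cerebellar granule neurons (CGNs) were 9 genes listed under familial PD: Sncaip, Pink1, Park7, Lrrk2, Vps35, Atp13a2, Dnajc6, Synj1 and Gigyf2. They were chosen by name, with earlier results of these data known. They make up 9 of the 18193 genes that the array measured through a probe set of 1 gene symbol. Each gene was read from its brightest such probe set. The values are log2 RMA values, so that a difference of 1 is a 2-fold change. RNA came from 12 CGN cultures of B10.RIII mice, prepared from the cerebella of pups 7 days old and kept 3 days in culture. The 4 groups held 3 cultures each: Ifnb+/+ (WT) untreated, Ifnb-/- untreated, WT with rIFN-β and Ifnb-/- with rIFN-β, the treatment being recombinant interferon-β at 100 U/ml for 24 hours. The Ifnb-/- mice lack the gene of this interferon throughout life and in every cell. Whether the 3 cultures of a group had different litters as their source was not stated, so the spread behind each p-value is that between cultures and may be technical.

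The proteins of these genes meet in a few pathways. PINK1 is a kinase that gathers on damaged mitochondria and marks them for removal by mitophagy, and DJ-1, the product of Park7, protects cells from oxidative damage. VPS35 is the core of retromer, which returns receptors from endosomes, ATP13A2 exports polyamines from lysosomes, and LRRK2 is a kinase that phosphorylates Rab proteins on membranes. Auxilin, the product of Dnajc6, and synaptojanin 1, the product of Synj1, strip clathrin coats from newly made synaptic vesicles. GIGYF2 represses the translation of bound mRNAs, and synphilin-1, the product of Sncaip, is a cytoplasmic protein found in Lewy bodies, the inclusions of PD neurons. The dopamine neurons that die in PD were not the cells of these cultures: of 10 dopamine neuron markers, 8 had a mean under 5, and tyrosine hydroxylase (Th) read between 2.64 and 3.33 in all arrays.

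The treatment reached the cells of both genotypes. Ifit1, an interferon-induced inhibitor of translation, went from 3.80 ± 0.22 to 10.8 ± 0.84 (SD, n = 3) in WT and from 2.75 ± 0.15 to 9.72 ± 0.47 in Ifnb-/- CGNs. Of 22 interferon-stimulated genes measured, 21 were higher with rIFN-β in WT and 17 in Ifnb-/- CGNs at an adjusted p under 0.05 (limma). Of all genes, 3.14% and 1.67% passed that threshold in either direction. Before adjustment, 22 and 21 of these genes were higher at p under 0.05, and none was lower. The probe set of Ifnb1 read between 2.48 and 3.06 in every group, so it did not check the genotype. The arrays had nearly equal medians, between 4.33 and 4.42 over all probe sets. Untreated Ifnb-/- arrays resembled each other most, with a median SD over all genes of 0.0872, against 0.201 in untreated WT. Array 1 of untreated WT lay farthest from its group's mean for 53.8% of all genes and for 7 of the 9 PD genes.

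Sncaip was the 1 gene of the 9 that passed the test in any comparison. Among treated cultures it was 1.94-fold lower in Ifnb-/- than in WT CGNs (adjusted p = 0.0221, limma), and all 3 arrays of one genotype lay below all 3 of the other. The other 8 genes differed by at most 0.21 on the log2 scale between treated genotypes. None of the 9 passed the test in the other comparisons, although Pink1 read lower with rIFN-β in both genotypes and 8 of the 9 separated the untreated genotypes without overlap.

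Those counts stand against the following background, where a gene passes nominally if its limma p before adjustment is under 0.05. Between treated genotypes, 1 of 9 PD genes was called, against 0.0605% of all genes, and 0 passed nominally as higher and 1 as lower, against 1.88% and 3.06%. Between untreated genotypes 0 of 9 were called, against 0.115% of all genes. Nominally 4 were higher and 3 lower in Ifnb-/-, against 8.4% and 12.8%. The groups did not overlap for 4 higher and 4 lower genes, against 10.1% and 18.1%. For rIFN-β in WT 0 of 9 were called, against 3.14%, with 1 nominally higher and 2 lower, against 8.81% and 11.1%. For rIFN-β in Ifnb-/- 0 of 9 were called, against 1.67%, with 0 nominally higher and 4 lower, against 9.16% and 5.44%. There 5 genes lay lower without overlap, against 12.6%. For the difference between the 2 effects of rIFN-β, 0 of 9 were called, against 0.022%, with 2 nominally higher and 4 lower, against 10.1% and 5.21%. The methods' t-test passed nominally 4 PD genes between untreated genotypes, 1 for rIFN-β in WT, 4 for rIFN-β in Ifnb-/- and 1 between treated genotypes, against 12.1%, 8.07%, 21.7% and 3.91% of all genes. After Benjamini-Hochberg adjustment it left Dnajc6 and Gigyf2, both lower with rIFN-β in Ifnb-/- CGNs, against 1.84% of all genes. In the other 3 comparisons it left none of the 9, against 0.033% of all genes between untreated genotypes and 0% for rIFN-β in WT and between treated genotypes.

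**Figure D1:**
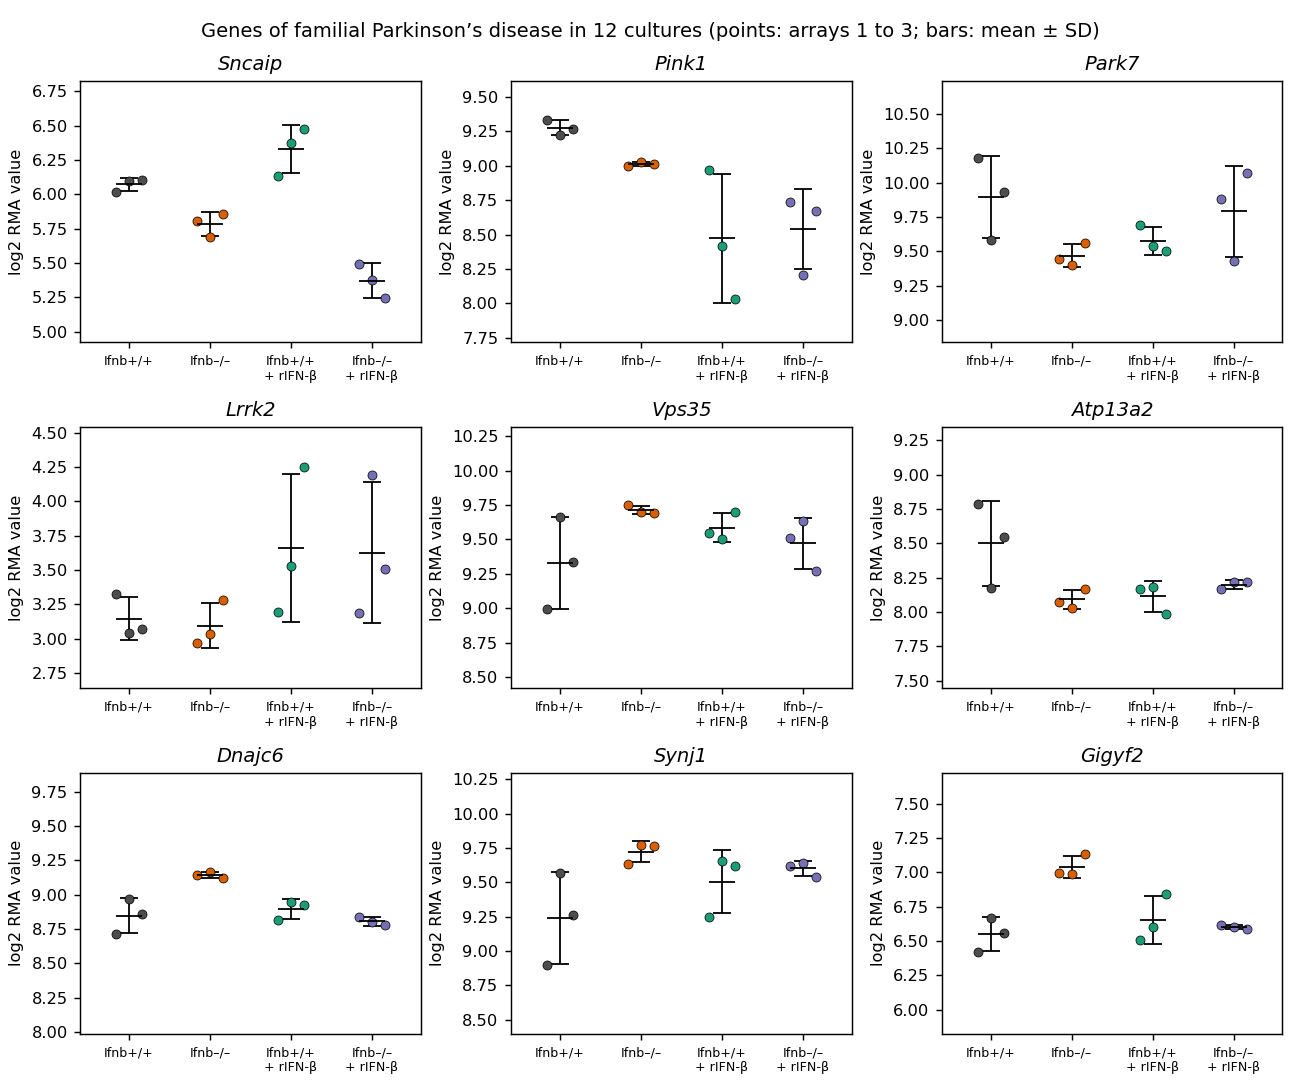
Log2 RMA value of each of the 9 PD genes in the 12 cultures; each panel spans the same height of 1.9 log2 units, points are arrays 1 to 3 of a group from left to right, and bars are the mean ± SD. Sncaip separated into 4 levels with no overlap, Pink1 was lower in both treated groups, and untreated Ifnb-/- arrays lay close together in most panels.

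Sncaip separated all 4 groups. Untreated WT arrays read 6.02, 6.10 and 6.10, and untreated Ifnb-/- arrays read 5.81, 5.69 and 5.86. With rIFN-β, WT arrays read 6.13, 6.38 and 6.48 and Ifnb-/- arrays 5.49, 5.38 and 5.24. From the top the order was therefore treated WT, untreated WT, untreated Ifnb-/- and treated Ifnb-/-, with no overlap between neighbours. Treated WT array 1 lay only just above the untreated WT arrays.

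The step between treated genotypes was -0.96 (SE 0.12, 95% interval -1.21 to -0.70), second of 18193 genes by p. The smaller steps did not pass the test: -0.29 for the untreated genotypes (adjusted p = 0.211), 0.26 for rIFN-β in WT (adjusted p = 0.246) and -0.41 for rIFN-β in Ifnb-/- (adjusted p = 0.111). A second, dimmer probe set of Sncaip gave -0.94 (SE 0.31, adjusted p = 0.797 over all probe sets) between treated genotypes. Its treated WT arrays were spread, at 4.05, 3.64 and 5.25, and all lay above the treated Ifnb-/- arrays at 3.49, 3.10 and 3.53. For rIFN-β in WT the probe sets went opposite ways, 0.26 in the brighter and -0.44 in the dimmer.

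The call of Sncaip lay near the threshold although its size varied little. Leaving out 1 array at a time gave -1.06 to -0.88 and an adjusted p of 0.00135 to 0.139. The call was lost without any of 8 arrays: untreated WT array 3, untreated Ifnb-/- arrays 1, 2 and 3, treated WT arrays 2 and 3, and treated Ifnb-/- arrays 1 and 3. With only the 6 treated arrays in the fit, the same difference had an adjusted p of 0.379, and 0 of all genes were called.

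Other measures moved with Sncaip between the treated genotypes. All 22 interferon-stimulated genes were nominally lower in treated Ifnb-/- than in treated WT CGNs, with a median of -1.32 against 0.026 over all genes, and none passed after adjustment. The genes most like Sncaip over the 12 arrays, among 9731 genes with a mean of at least 5, were Tlr2, a receptor of bacterial lipoproteins (r = 0.946), Rragd, a GTPase of the mTOR pathway (r = 0.869), and Ctsh, a lysosomal protease (r = 0.851). Tlr2 was -1.89 (SE 0.26, adjusted p = 0.0226) between treated genotypes. Tlr2 and Ctsh are expressed by microglia. The summed level of 19 microglial markers overlapped between treated WT (11.19 to 11.48) and treated Ifnb-/- arrays (11.17 to 11.37). Of these markers 7 were nominally lower and 2 higher in treated Ifnb-/-, and none was called. Of 14 granule neuron markers 1 was called higher there, Gabra6, a subunit of the GABA-A receptor of granule neurons, which read 4.94 to 5.61 in treated WT and 6.29 to 6.83 in treated Ifnb-/- arrays. The part of these genes in the Sncaip difference was not tested. In cultures of mixed cells, fewer cells of a type and less RNA per cell cannot be told apart.

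**Figure D2:**
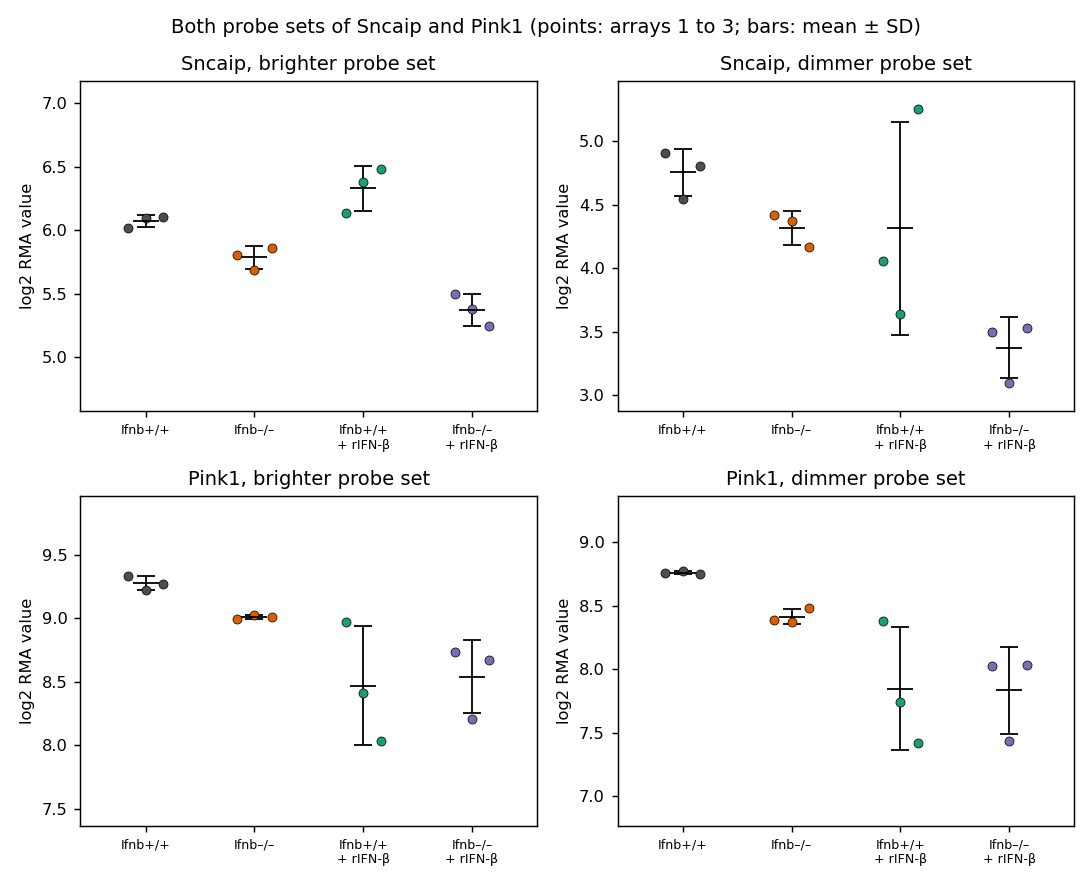
Log2 RMA values of both probe sets of Sncaip (top) and Pink1 (bottom) by group; each panel spans 2.6 log2 units, points are arrays 1 to 3 and bars are the mean ± SD. Both Sncaip probe sets put all treated Ifnb-/- arrays below all treated WT arrays, and both Pink1 probe sets put all treated arrays below the untreated arrays of the same genotype.

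Pink1 had the largest log2 difference with rIFN-β in WT CGNs among the 9 genes, and in Ifnb-/- CGNs it came after Lrrk2. Untreated WT arrays read 9.33, 9.23 and 9.27, and treated WT arrays 8.97, 8.41 and 8.03. Untreated Ifnb-/- arrays read 9.0, 9.02 and 9.01, and treated Ifnb-/- arrays 8.74, 8.21 and 8.67. Every treated array lay below every untreated array of either genotype, and the treated groups were much wider than the untreated ones. The difference in WT was -0.81 (SE 0.20, 95% interval -1.25 to -0.36), just outside the threshold (adjusted p = 0.0558). In Ifnb-/- it was -0.47 (SE 0.20, adjusted p = 0.310), and the 2 effects differed by 0.34 (95% interval -0.29 to 0.96). The dimmer probe set gave -0.91 in WT and -0.58 in Ifnb-/-. Untreated Ifnb-/- arrays all read below untreated WT arrays, by -0.27 (95% interval -0.71 to 0.18, adjusted p = 0.443).

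For Pink1, treated WT array 3 and treated Ifnb-/- array 2 were the lowest of their groups. The same 2 arrays were the highest of their groups for Lrrk2, and had the highest summed level of 15 astrocyte and Bergmann glia markers, 13.66 and 14. Treated WT array 2, next for that sum at 13.09, was also next lowest for Pink1, while the other 9 arrays lay between 12.44 and 12.72. Within the treated WT group Pink1 thus followed the reverse order of the glial sum. In treated Ifnb-/-, array 3 had the lowest glial sum, 12.6, but array 1 had the highest Pink1. The summed level of 22 interferon-stimulated genes had the same order in treated WT arrays 1 to 3, at 13.66, 14.64 and 15.25. It was also highest in array 2 of treated Ifnb-/-, at 13.05, 13.89 and 13.03. Without treated WT array 3 and treated Ifnb-/- array 2, a choice made after the data were seen, the Pink1 difference was -0.59 in WT (adjusted p = 0.088) and -0.30 in Ifnb-/- (adjusted p = 0.324). Without treated WT array 1 the Pink1 difference in WT was -1.055 (adjusted p = 0.00349). Of the 15 glial markers, 2 were nominally higher in WT and 2 in Ifnb-/- with rIFN-β, 1 was lower in Ifnb-/-, and none was called. Gfap, an astrocyte gene of that list, varied more than the sum in untreated WT arrays, from 7.29 to 10.25. It read 7.46 to 7.66 in untreated Ifnb-/-, 8.09 to 10.31 in treated WT and 8.12 to 9.68 in treated Ifnb-/- arrays. The part of glial cells, or of the strength of the interferon response, in the Pink1 values was not tested.

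The promoter of Pink1 is shown because this gene came closest to a call for rIFN-β. In the RefSeq window from 250 bases before to 50 bases after the start site (GRCm38.p6, chr4:138326247-138326546, minus strand), it reads, 5′ to 3′:
Pink1: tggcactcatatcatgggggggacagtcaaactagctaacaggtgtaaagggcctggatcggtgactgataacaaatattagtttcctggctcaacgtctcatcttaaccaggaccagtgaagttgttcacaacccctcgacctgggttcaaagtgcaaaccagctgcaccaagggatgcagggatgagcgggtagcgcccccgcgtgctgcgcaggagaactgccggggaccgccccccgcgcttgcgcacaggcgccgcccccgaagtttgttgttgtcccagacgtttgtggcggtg
Capitals would mark matches on either strand to a pair of GAAA spaced by any 2 bases (the core of an interferon-stimulated response element), TTCNNNGAA (an interferon-γ-activated site), CACGTG (an E-box) or TGACNNNGC (an antioxidant response element), and there are none. Of 32851 promoter windows, 3.44% hold the first, 8.3% the second, 7.15% the third and 12.4% the fourth. Neither interferon motif occurs in the windows of the 7 PD genes that have any. Sncaip and Vps35 had none to search.

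Park7 read 10.18, 9.58 and 9.93 in untreated WT and 9.44, 9.40 and 9.56 in untreated Ifnb-/- CGNs. With rIFN-β it read 9.69, 9.54 and 9.50 in WT and 9.88, 9.43 and 10.07 in Ifnb-/- arrays. Untreated WT was the higher genotype, without overlap, and treated groups overlapped. The differences were -0.43 between untreated genotypes (SE 0.18, adjusted p = 0.213), -0.32 for rIFN-β in WT (adjusted p = 0.336) and 0.32 for rIFN-β in Ifnb-/- (adjusted p = 0.420). The effects of rIFN-β thus had opposite signs and differed by 0.64 (SE 0.25, 95% interval 0.098 to 1.19, adjusted p = 0.323). A second probe set gave -0.39, -0.27 and 0.30 for the same 3 comparisons.

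Among the endosomal and lysosomal genes, Vps35 and Atp13a2 read in opposite directions between untreated genotypes. Vps35 read 8.99, 9.66 and 9.33 in untreated WT and 9.75, 9.70 and 9.70 in untreated Ifnb-/- arrays, a difference of 0.39 (SE 0.16, adjusted p = 0.211). Atp13a2 read 8.79, 8.17 and 8.54 in untreated WT and 8.07, 8.03 and 8.17 in untreated Ifnb-/- arrays, a difference of -0.41 (SE 0.14, adjusted p = 0.189). In both genes the untreated genotypes did not overlap, but array 2 of WT lay close to the Ifnb-/- arrays. All 3 probe sets of Atp13a2 were lower in untreated Ifnb-/-, by -0.68 to -0.41. With rIFN-β, Atp13a2 read 8.17, 8.18 and 7.99 in WT, a difference of -0.39 (adjusted p = 0.161) with overlap, and 8.16, 8.22 and 8.22 in Ifnb-/- (0.11, adjusted p = 0.739). Vps35 read 9.55, 9.50 and 9.70 in treated WT and 9.51, 9.63 and 9.27 in treated Ifnb-/- arrays. The latter all lay below the untreated Ifnb-/- arrays, by -0.24 (95% interval -0.59 to 0.098, adjusted p = 0.487). The dimmer Vps35 probe set disagreed in sign for rIFN-β in WT, -0.56 (SE 0.45) against 0.26 (SE 0.16), and in size in Ifnb-/-, -1.18 (SE 0.45, adjusted p = 0.240 over all probe sets) against -0.24 (SE 0.16).

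Lrrk2 was low on the scale and read below the array median in all 12 arrays. Untreated WT arrays read 3.32, 3.04 and 3.07 and untreated Ifnb-/- arrays 2.97, 3.04 and 3.28, so the genotypes overlapped (-0.048, 95% interval -0.64 to 0.55). With rIFN-β the values spread to 3.19, 3.53 and 4.25 in WT and 3.18, 4.19 and 3.50 in Ifnb-/- CGNs. The differences were 0.52 (SE 0.27, adjusted p = 0.313) and 0.53 (SE 0.27, adjusted p = 0.394), and treated groups overlapped the untreated ones. The genes most like Lrrk2 were Rhbdf1 (r = 0.981), the homeobox gene Hopx (r = 0.975), which is a member of the glial marker list, and Yap1, a coactivator of the Hippo pathway (r = 0.950). Without the 2 arrays of highest glial sum, the differences of Lrrk2 were 0.22 (adjusted p = 0.541) and 0.25 (adjusted p = 0.440). Those 2 arrays also had the highest summed level of interferon-stimulated genes in their groups. The part of glial cells, or of that level, in the Lrrk2 differences was not tested.

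**Figure D3:**
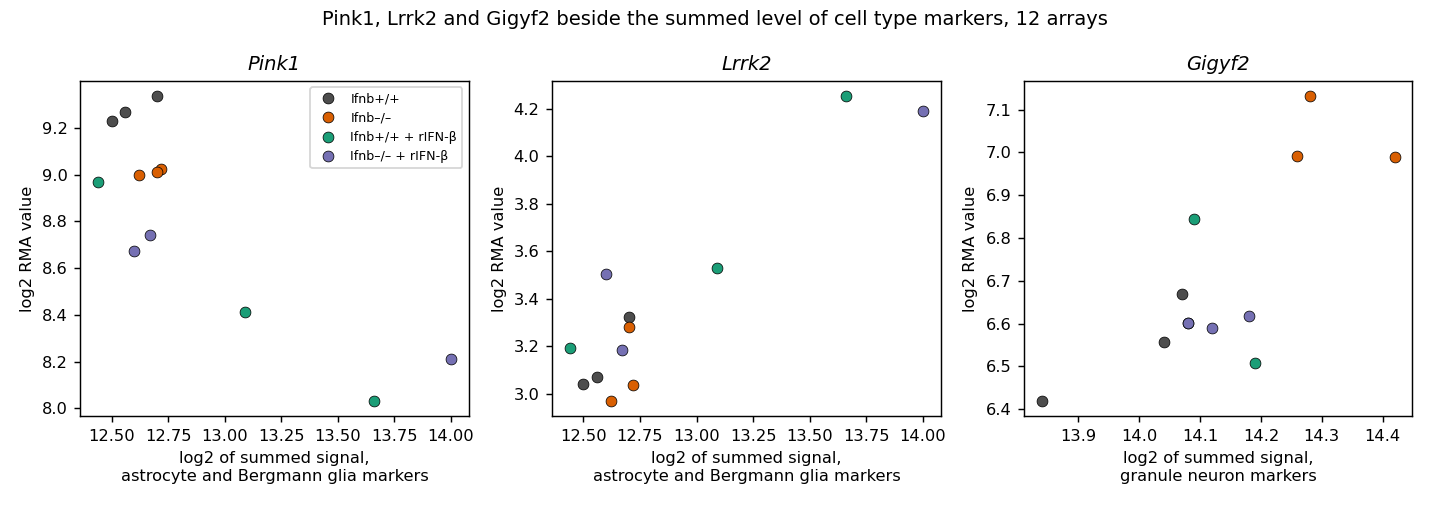
Log2 RMA values of Pink1, Lrrk2 and Gigyf2 in the 12 arrays against the log2 of the summed signal of 15 astrocyte and Bergmann glia markers (left and middle) or 14 granule neuron markers (right), coloured by group. The 2 arrays of highest glial sum, 1 of each treated group, had the lowest Pink1 and the highest Lrrk2 of their groups, and the 3 untreated Ifnb-/- arrays had the highest granule neuron sums and the highest Gigyf2.

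The 2 genes of synaptic vesicle uncoating both read higher in untreated Ifnb-/- than in untreated WT CGNs. Dnajc6 read 8.71, 8.97 and 8.86 in untreated WT and 9.14, 9.16 and 9.12 in untreated Ifnb-/- arrays, a difference of 0.30 (SE 0.10, adjusted p = 0.187). Synj1 read 8.90, 9.57 and 9.26 in untreated WT and 9.63, 9.77 and 9.76 in untreated Ifnb-/- arrays, a difference of 0.48 (SE 0.16, adjusted p = 0.187). Neither pair of groups overlapped. With rIFN-β, Dnajc6 read 8.84, 8.80 and 8.78 in Ifnb-/- arrays, below all untreated arrays of that genotype, by -0.34 (SE 0.10, adjusted p = 0.129). In treated WT arrays it read 8.81, 8.95 and 8.92, within the range of the untreated ones (0.048, 95% interval -0.17 to 0.26). Synj1 with rIFN-β read 9.25, 9.65 and 9.62 in WT and 9.62, 9.64 and 9.54 in Ifnb-/- arrays, and overlapped the untreated arrays in both genotypes (0.26 and -0.12, adjusted p = 0.382 and 0.746). All 4 probe sets of Dnajc6 and all 4 of Synj1 were higher in untreated Ifnb-/-, by 0.15 to 0.61 and by 0.23 to 0.55. The dimmest of each gene gave the smallest of these values, and with means of 2.47 and 2.16 both lay below the array median. For rIFN-β in Ifnb-/- the probe sets differed more. The 2 next brightest of Synj1 gave -0.49 (SE 0.16, adjusted p = 0.180 over all probe sets) and -0.40 (SE 0.15, adjusted p = 0.219), against -0.12 in the brightest. On the first of these the treated Ifnb-/- arrays, at 8.64, 8.22 and 8.51, all lay below the untreated ones, at 8.86, 9.07 and 8.93. The 3 dimmer probe sets of Dnajc6 gave between -0.68 and 0.065 for the same comparison. For rIFN-β in WT the next brightest of Dnajc6 gave -0.51 (SE 0.26, adjusted p = 0.313 over all probe sets), against 0.048 in the brightest. The dimmer ones gave 0.18 and -0.064 there.

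Gigyf2 had the smallest p of the 9 genes between untreated genotypes. It read 6.42, 6.67 and 6.56 in untreated WT and 6.99, 6.99 and 7.13 in untreated Ifnb-/- arrays, with no overlap. The difference was 0.49 (SE 0.11, 95% interval 0.24 to 0.74, adjusted p = 0.135). With rIFN-β it read 6.51, 6.60 and 6.85 in WT and 6.62, 6.60 and 6.59 in Ifnb-/- arrays, so treated Ifnb-/- arrays lay within the range of both WT groups. The treatment difference in Ifnb-/- was -0.43 (SE 0.11, adjusted p = 0.0897) and that in WT 0.10 (adjusted p = 0.662), and the 2 differed by -0.54 (SE 0.16, adjusted p = 0.323). Of its 4 probe sets, 3 were higher in untreated Ifnb-/-, by 0.49 to 1.01, and the dimmest was not, at -0.082. For rIFN-β in WT the 2 next brightest gave 0.67 (SE 0.33, adjusted p = 0.292 over all probe sets) and 0.72 (SE 0.29, adjusted p = 0.213), and the mean of the 4 probe sets gave 0.37 (adjusted p = 0.264 over all genes). For the difference of the 2 effects these 2 probe sets gave -1.32 and -1.37 (adjusted p = 0.373 for each).

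Beside the higher readings of Gigyf2, Dnajc6 and Synj1 in untreated Ifnb-/- arrays stand those of granule neuron markers. The summed level of 14 such markers was 13.84 to 14.07 in untreated WT and 14.26 to 14.42 in untreated Ifnb-/- arrays, with no overlap, and 14.08 to 14.19 over both treated groups. Nominally 5 of the markers were higher and 1 lower in untreated Ifnb-/-, and none was called. Pax6, a transcription factor of granule neurons and a member of that list, was among the genes most like Gigyf2 (r = 0.935). The summed microglial markers went the other way, 11.96 to 12.29 in untreated WT and 11.53 to 11.68 in untreated Ifnb-/- arrays, with 2 of 19 called lower. The part of the cell mixture in these differences was not tested.

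The promoter window of Gigyf2 is shown because Gigyf2 was the only one of the 7 genes whose windows matched a motif searched. In GRCm38.p6 (RefSeq) it lies at chr1:87326748-87327047 on the plus strand and reads, 5′ to 3′:
Gigyf2: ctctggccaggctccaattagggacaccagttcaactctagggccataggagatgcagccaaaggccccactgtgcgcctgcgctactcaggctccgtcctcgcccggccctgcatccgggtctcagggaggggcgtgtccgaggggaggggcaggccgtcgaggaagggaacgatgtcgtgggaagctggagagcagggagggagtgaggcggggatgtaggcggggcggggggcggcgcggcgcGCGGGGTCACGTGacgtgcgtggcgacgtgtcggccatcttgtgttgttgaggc
The capitals mark 2 matches that share bases: GCGGGGTCA, the antioxidant motif on the opposite strand, and CACGTG, the E-box.

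**Figure D4:**
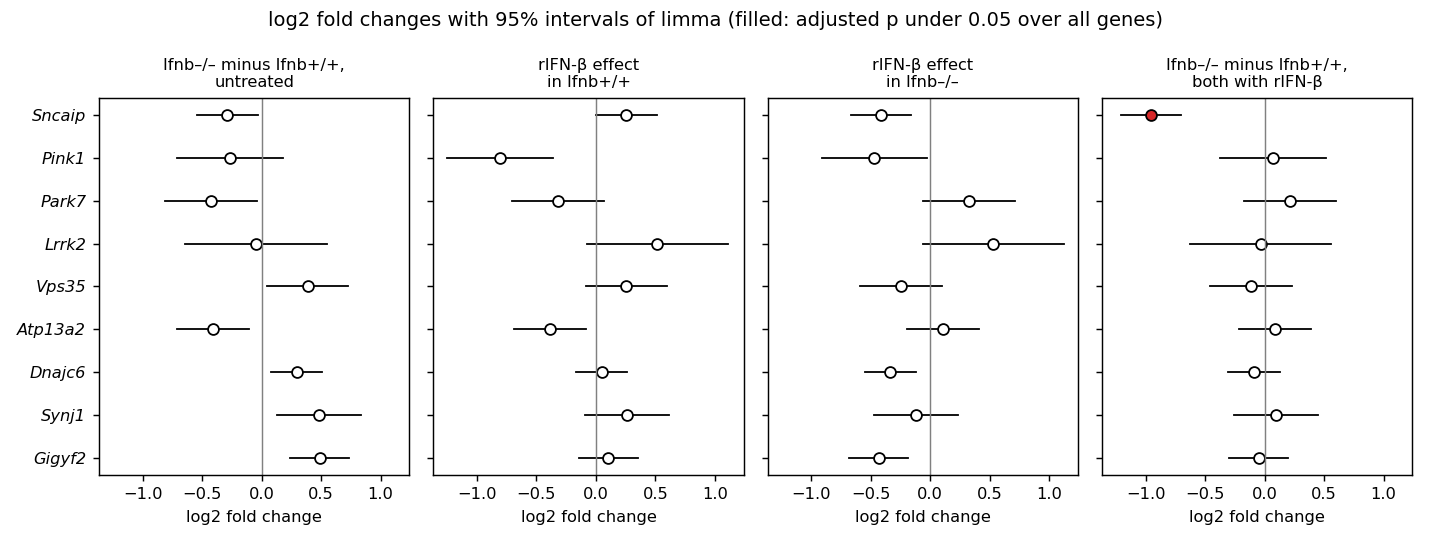
Log2 fold changes of the 9 PD genes in 4 comparisons with their 95% limma intervals; a filled point marks an adjusted p under 0.05 over all genes. Sncaip between treated genotypes, at -0.96, was the only filled point, and the other 8 genes lay near 0 there.

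Untreated WT arrays 1 and 2 lay on opposite sides of array 3 for many of the 9 genes. From the group's mean, arrays 1 and 2 deviated by -0.34 and 0.33 in Vps35 and by 0.28 and -0.32 in Park7. Array 1 had the highest Park7 and Atp13a2 and the lowest Vps35, Synj1, Dnajc6 and Gigyf2 of all arrays in its group. Untreated WT array 2 lay closest to the Ifnb-/- arrays for the same 6 genes. Without WT array 2, all 6 passed the test (as did 3846 of the 18193 genes), and without any other single array none of the 9 did. Without WT array 1 the untreated genotypes differed less, by 0.22 in Vps35, 0.31 in Synj1 and -0.27 in Atp13a2 (adjusted p = 0.690, 0.588 and 0.599). Across the 12 arrays, which share these groups, Park7 and Vps35 had r = -0.921, Vps35 and Atp13a2 -0.878, Lrrk2 and Pink1 -0.874, and Gigyf2 and Dnajc6 0.914.

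Dnajc6, Pink1, Atp13a2 and Park7 lie on chromosome 4, as does Ifnb1, and the other 5 genes lie elsewhere. Between untreated genotypes Dnajc6, Pink1, Atp13a2 and Park7 differed by 0.30, -0.27, -0.41 and -0.43. Whether their place on the chromosome of Ifnb1 had a part in these differences was not tested.

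Genes that act with the 9 were read from 8 lists. Every list except that of PINK1 import and mitophagy also counts PD genes among its members. No gene passed the test in any of the comparisons among 31 genes of PINK1 import and mitophagy, 25 of retromer and the WASH complex, or 31 of clathrin coats and vesicle endocytosis. Nominally 1 mitophagy gene was higher and 5 lower with rIFN-β in WT, 3 retromer genes were higher and 6 lower, and 1 clathrin gene was higher and 10 lower, where 8.81% of all genes were higher and 11.1% lower. With rIFN-β in Ifnb-/-, 2 mitophagy genes were nominally higher and 2 lower, 1 retromer gene was higher and 1 lower, and 0 clathrin genes were higher and 3 lower, where the shares of all genes were 9.16% and 5.44%. Closest to a call in WT were Tbk1, a kinase of autophagy receptors (0.95, adjusted p = 0.109), Washc4 of the WASH complex (1.14, adjusted p = 0.118) and Sh3glb1, endophilin B1 (0.54, adjusted p = 0.0604). Of 30 LRRK2 substrates and regulators, 1 was called for rIFN-β in WT, against 3.14% of all genes. This gene, Rilpl2, which binds phosphorylated Rab proteins, fell by 0.92 there (SE 0.16, adjusted p = 0.00648).

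Of 14 genes of polyamine metabolism and P5-type ATPases, Odc1, the first enzyme of polyamine synthesis, rose by 0.66 with rIFN-β in Ifnb-/- CGNs (adjusted p = 0.0438). Of 13 genes of GIGYF-dependent repression, Zfp36, which binds AU-rich mRNAs, rose by 1.09 there (adjusted p = 0.0135), with 0.71 in WT (adjusted p = 0.0634). Of 23 antioxidant genes, Hmox1, heme oxygenase 1, was lower in untreated Ifnb-/- than in untreated WT CGNs (log2 difference -0.95, adjusted p = 0.0485) and fell by 0.72 with rIFN-β in WT (adjusted p = 0.0254). A further 8 genes of the antioxidant list, Park7 itself among them, were nominally lower in untreated Ifnb-/-. None was higher, where 12.8% of all genes were lower and 8.4% higher. In the same comparison 9 of 19 microglial markers were nominally lower, and their part in the antioxidant values was not tested. The median of the antioxidant list was -0.35, against -0.091 over all genes. Of 11 ubiquitin ligases and partners of synphilin-1, Rnf19b, a ubiquitin ligase, rose by 1.39 with rIFN-β in WT (adjusted p = 0.00183), with 0.84 in Ifnb-/- (adjusted p = 0.0527). The calls above were of 1 gene per list and comparison. The called shares of all genes were 3.14% for rIFN-β in WT, 1.67% for rIFN-β in Ifnb-/- and 0.115% between untreated genotypes. Apart from Sncaip itself, no gene of the 8 lists was called between treated genotypes.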

How the data were processed

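RNA of 12 cultures was hybridized to Affymetrix mouse expression arrays. With Arraystar the authors applied quantile normalization and RMA, and the deposited log2 values, 1 for each of 45037 probe sets, were used without further scaling. Probe sets were named through the platform annotation: 34945 had 1 symbol, 932 several and 9160 none. A gene was read from its single-symbol probe set of highest mean. RefSeq supplied chromosomes and 300-base promoter windows, which 7 of the 9 genes had.

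Comparisons were contrasts of the 4 group means in a single limma fit (version 3.58.1, R 4.3.3) of the 12 arrays. P-values were adjusted by Benjamini-Hochberg across the 18193 genes, and an adjusted p under 0.05 made a call. The number of arrays limits the precision.

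The 9 genes and the lists were chosen with earlier results of these data known. The genes named were the 9 with every probe set, up to 3 called members of a list (otherwise that of smallest p), the 3 genes of highest r per PD gene, and Ifit1 and Ifnb1 as checks. Isg15 was not read from a probe set of its own. Alternatives were averaging the probe sets of a gene, testing each probe set singly, dropping genes with a mean under 5, repeating the quantile step, median centring, array weights, trend and robust variance, a replicate block, each array left out, only the compared groups and the methods' t-test. The alternative without the 2 arrays of highest glial sum was chosen after seeing the data.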

Additional observations from a re-analysis of the deposited data

Results flagged for a closer look

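The effect of rIFN-β on Sncaip had opposite signs in the 2 genotypes. Every treated WT array read above every untreated WT array, and every treated Ifnb-/- array read below every untreated Ifnb-/- array. The difference between the 2 effects was -0.67 on the log2 scale (SE 0.16, 95% interval -1.03 to -0.31). It did not pass the test over all genes (adjusted p = 0.323, limma). The dimmer probe set of Sncaip gave -0.51 (SE 0.44) for the same difference, with a lower value in both treated groups.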

How the results depend on the processing

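Between untreated genotypes, the count of called PD genes went from 0 to 8 with array weights, to 4 by the methods' t-test without adjustment, and to between 0 and 6 with 1 array left out (6 without untreated WT array 2). For rIFN-β in WT it went from 0 to 5 with array weights, to 1 (Pink1) with probe sets averaged per gene, with genes of a mean of at least 5 and by the unadjusted t-test of the methods, and to between 0 and 2 with 1 array left out. Those calls were Pink1 and Atp13a2 without untreated WT array 2, and Pink1 without treated WT array 1 or treated Ifnb-/- array 2. For rIFN-β in Ifnb-/- it went from 0 to 6 with array weights, to 2 with only the compared groups and by the adjusted t-test of the methods, to 4 by that test unadjusted, and to between 0 and 1 with 1 array left out (Gigyf2, without untreated WT array 1). Between treated genotypes the 1 call (Sncaip) became 0 with probe sets averaged per gene, with only the compared groups, by the adjusted t-test of the methods and without the 2 arrays of highest glial sum, and was 0 to 1 with 1 array left out. For the difference of the 2 effects the count went from 0 to 8 with array weights and to between 0 and 2 with 1 array left out (Atp13a2 and Sncaip, without untreated WT array 2). With array weights 59.8% of all genes were called between untreated genotypes, 30.8% for rIFN-β in WT, 28.1% for rIFN-β in Ifnb-/- and 34.6% for the difference of the 2 effects, so the counts above are read against those shares. Without untreated WT array 2, 21.1% of all genes were called between untreated genotypes, 16% for rIFN-β in WT and 6.8% for the difference of the 2 effects. With only the compared groups 7.01% were called for rIFN-β in Ifnb-/-. For rIFN-β in WT, 5.94% were called without treated WT array 1, 4.11% without treated Ifnb-/- array 2 and 3% with probe sets averaged per gene. Among genes with a mean of at least 5, 449 were called for rIFN-β in WT. For rIFN-β in Ifnb-/-, 3.88% were called without untreated WT array 1. The causes were not tested.

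Whether equal array numbers mark paired cultures cannot be told from 3 arrays per group. Same-numbered arrays of 2 groups deviated together with r over 0.1 in 5 of 18 pairs, with a range of -0.501 to 0.432. Between untreated and treated arrays r was 0.298, 0.156 and 0.0647 in WT and 0.0733, 0.0691 and 0.0505 in Ifnb-/-. With the number as a replicate block, 1 PD gene was called for rIFN-β in WT (Pink1, adjusted p = 0.0389). In that comparison 4.66% of all genes were called with the block and 3.14% without it. Between treated genotypes 0 PD genes were called with the block (Sncaip, adjusted p = 0.0532), and 0 of all genes.

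Changes of sign met only values that were not called. In Lrrk2, the untreated genotypes differed by 0.030 with array weights and by -0.14 to 0.042 with 1 array left out, the treated genotypes by -0.32 to 0.26 with 1 left out, and the 2 effects by -0.032 after a further quantile normalization, by -0.35 with array weights and by -0.27 to 0.31 with 1 left out. With probe sets averaged per gene, rIFN-β in WT gave -0.092 for Sncaip, -0.15 for Vps35 and -0.085 for Dnajc6, and the treated genotypes differed by 0.10 in Dnajc6. With 1 array left out, rIFN-β in WT gave -0.020 to 0.11 for Dnajc6, and the treated genotypes differed by -0.15 to 0.32 in Pink1, -0.12 to 0.049 in Gigyf2 and -0.035 to 0.17 in Synj1. Without the 2 arrays of highest glial sum the treated genotypes differed by 0.049 in Gigyf2. Of 1003 values under an alternative, 910 kept their direction and side of the threshold.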
